A study of Mus musculus with 3 samples.

Results

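Cck, Nts, Penk, Pomc, Npy, Tac1, Gal and Grp, 8 genes that encode the precursors of neuropeptides, were followed across mouse embryonic stem cells with and without an edited Pcgf6 gene. They were picked by name, with their differences between these arrays already known, so every level and difference of theirs is given as a description and none is tested. Each gene was read by 1 probe, so 8 probes of the 55681 on the array were used, and 8 genes of the 20274 that could be named.

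RNA from male embryonic stem cells was hybridised to 3 1-colour Agilent arrays, 1 array per group. The first group, labelled Pcgf6KO+ Pcgf6_flag, was edited cells that had also received Flag-tagged Pcgf6 by lentiviral infection. The second group, Pcgf6KO, was cells edited at Pcgf6 with Cas9, and the third was wildtype cells without either change. All 3 cultures grew in serum and leukemia inhibitory factor on mouse embryonic fibroblasts inactivated with mitomycin-C, so their RNA can hold fibroblast transcripts. The sources used here do not say whether an edited line is a single clone or which promoter drove the introduced Pcgf6. Pcgf6 encodes a Polycomb group RING finger protein that defines the repressive complex PRC1.6. Its own probe had scaled levels of 0.43 on the array labelled Pcgf6KO+ Pcgf6_flag, 0.84 in Pcgf6KO and 1.87 in wildtype. Since Pcgf6 was not higher where the label says that it had been added back, that array is called the array labelled Pcgf6_flag, and each direction drawn from it rests on its label. Where the probe lies relative to the edit and the introduced sequence is not given, so it may miss the introduced transcript. The levels of this probe therefore cannot show whether Pcgf6 was expressed again. In Pcgf6KO the probe was well above background and 2.04-fold below wildtype, so directions drawn from Pcgf6KO rest on its label as well.

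Neuropeptides are made as long precursor proteins that enter the secretory pathway and are cut by proprotein convertases at pairs of basic residues, trimmed by carboxypeptidases and often amidated at their end. The mature peptides are stored in dense-core granules and act on G protein-coupled receptors. They are best known from neurons, gut endocrine cells and the pituitary, and embryonic stem cells are not a classical source of them. PRC1.6 includes the MGA and MAX proteins, which bind E-box DNA, and E2F6, which binds E2F sites, and it is known for silencing germline genes in embryonic stem cells.

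The start regions of the members are shown first, because genes that differ together on these arrays can be compared for shared letters. RefSeq windows of 300 bases, from 250 before to 50 after the annotated start, were matched by symbol for 6 of the 8 members, namely Cck, Nts, Pomc, Npy, Tac1 and Gal. Capitals mark the searched motifs, and the 4 windows printed are of the member that was lower in both edited cultures than in wildtype (Cck), of members highest in Pcgf6KO (Tac1 and Nts) and of the member highest on the array labelled Pcgf6_flag (Npy).
Cck (GRCm38.p6, chr9:121495645-121495944, minus strand): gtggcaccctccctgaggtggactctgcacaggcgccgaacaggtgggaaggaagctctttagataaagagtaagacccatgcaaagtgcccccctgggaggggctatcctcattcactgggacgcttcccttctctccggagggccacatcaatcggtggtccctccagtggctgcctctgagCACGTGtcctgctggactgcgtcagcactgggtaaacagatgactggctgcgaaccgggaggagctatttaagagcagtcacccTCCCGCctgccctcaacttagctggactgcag
Tac1 (GRCm38.p6, chr6:7554811-7555110, plus strand): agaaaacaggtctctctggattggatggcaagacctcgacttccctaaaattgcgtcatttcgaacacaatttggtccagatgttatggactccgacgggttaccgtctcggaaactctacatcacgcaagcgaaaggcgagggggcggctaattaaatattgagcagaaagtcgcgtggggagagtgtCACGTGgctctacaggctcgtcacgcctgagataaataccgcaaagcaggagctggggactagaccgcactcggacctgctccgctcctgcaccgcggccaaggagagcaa
Nts (GRCm38.p6, chr10:102490369-102490668, minus strand): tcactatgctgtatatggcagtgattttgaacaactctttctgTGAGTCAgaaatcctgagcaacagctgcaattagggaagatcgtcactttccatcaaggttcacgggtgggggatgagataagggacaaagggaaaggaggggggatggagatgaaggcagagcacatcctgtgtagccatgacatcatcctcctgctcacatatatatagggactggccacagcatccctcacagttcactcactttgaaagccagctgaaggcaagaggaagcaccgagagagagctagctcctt
Npy (GRCm38.p6, chr6:49822460-49822759, plus strand): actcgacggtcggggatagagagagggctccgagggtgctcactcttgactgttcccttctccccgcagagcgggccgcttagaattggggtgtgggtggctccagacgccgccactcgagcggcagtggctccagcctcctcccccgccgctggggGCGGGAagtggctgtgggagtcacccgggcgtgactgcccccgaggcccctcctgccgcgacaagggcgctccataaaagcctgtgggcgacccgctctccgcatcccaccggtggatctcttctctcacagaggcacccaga

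Both strands were searched for the E-box CACGTG, the E2F motif TCCCGC, the cyclic AMP response element TGACGTCA, the AP-1 motif TGAGTCA and the TATA box TATAAA. The motifs were chosen with these windows in view, and no hits overlapped. The E-box was found in the windows of Cck and Tac1, starting 66 and 61 bases before the annotated start. It occurs in 7.15% of all 32851 RefSeq windows of the same length. Thus a member that was lower in both edited cultures than in wildtype and a member that was highest in Pcgf6KO both carried it. The E2F motif, found in 20.0% of all windows, was present for Cck, starting at base 19 after the start, and for Npy, 93 bases before it on the opposite strand. The AP-1 motif was found for Nts, 207 bases before the start (5.20% of all windows), and TATAAA for Pomc, 25 bases before it (13.6%). No member window held TGACGTCA, which occurs in 1.79% of all windows, and none of the searched motifs was found in the window of Gal. The windows held 24 CpG dinucleotides for Npy, 22 for Tac1, 18 for Pomc, 16 for Gal, 10 for Cck and 3 for Nts, against a median of 7 over all windows. The windows therefore differed widely in CpG content, and only that of Nts was below the median of all windows. A match of letters is a description of the sequence, not a binding site measured here.

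Values are given as the processed signal, which is linear and background-subtracted, with the error that the scanner software assigned to the spot, and as the scaled level, log2 of that signal minus the 75th percentile of the array. Between 60.7% (array labelled Pcgf6_flag) and 66.0% (Pcgf6KO) of probes were well above background, and the SD of the negative controls was 16.9 signal units on the array labelled Pcgf6_flag, 9.09 in Pcgf6KO and 8.80 in wildtype. Repeated spots of one probe varied within an array with an SD of 0.09 on the log2 scale, and a difference between single spots of 2 arrays would vary by 0.12 to 0.13 from this source. How far cultures or RNA preparations of one group vary cannot be seen with 1 array per group, and this limits the precision of every difference below. Pcgf6KO and wildtype shared slide 1 and a scan, while the array labelled Pcgf6_flag was alone on slide 2, so for it slide and group cannot be told apart. In total RNA of a culture, fewer cells that express a gene and less RNA per cell cannot be told apart either.

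**Figure D1:**
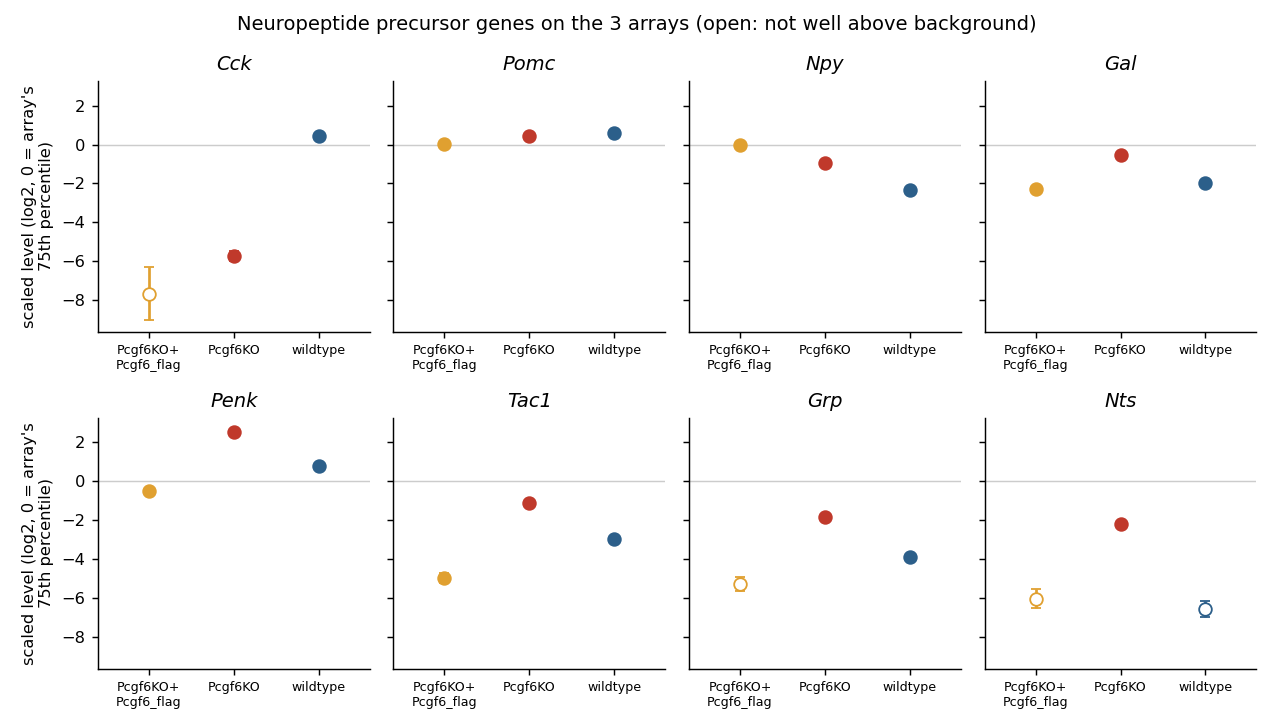
Scaled level (log2, 0 at the 75th percentile of the array) of each neuropeptide precursor gene on the array labelled Pcgf6KO+ Pcgf6_flag, in Pcgf6KO and in wildtype. Points are single arrays, bars are the scanner software's error of the spot, and open points are not well above background. Nts, Grp, Tac1, Penk and Gal are highest in Pcgf6KO, Npy is highest on the array labelled Pcgf6KO+ Pcgf6_flag, Cck is highest in wildtype and Pomc differs little. Levels are to be read within a gene, since different probes cannot be set against each other.

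The members fell into 4 patterns, as the plot of levels by array shows. Nts, Grp, Tac1, Penk and Gal were highest in Pcgf6KO and at least 2-fold lower on both other arrays. Npy was higher on both edited arrays than in wildtype, Cck was lower on both, and Pomc differed less than 2-fold in every comparison. Being at least 2-fold higher in Pcgf6KO than on both other arrays held for 5 of 8 members and for 4.42% of the 16048 genes measured on at least 1 array. Being at least 2-fold below wildtype on both edited arrays held for 1 member, Cck, and for 1.83% of those genes. The members were chosen on these values, so nothing is read from the shares.

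Nts encodes the precursor of neurotensin and neuromedin N, peptides of the gut and hypothalamus. Its processed signal was 69.8 ± 23.9 on the array labelled Pcgf6_flag, 935 ± 94.3 in Pcgf6KO and 41.1 ± 12.1 in wildtype. Only the Pcgf6KO spot was well above background. Because the outer arrays give no more than a limit, the difference is a bound: Nts was at least 16.2-fold higher in Pcgf6KO than in wildtype, and the array labelled Pcgf6_flag was below Pcgf6KO by at least 9.75-fold. These bounds hold for the processed signal. With normexp, another background correction that raises dim spots by an offset, the log2 differences were 2.74 and -2.47, which are smaller than the bounds. No fold is given between the array labelled Pcgf6_flag and wildtype, as Nts was not well above background on either. The lowest signals counted as well above background were 103 on the array labelled Pcgf6_flag, 53.4 in Pcgf6KO and 52.7 in wildtype, and the bounds are set against the higher of these and the spot's own signal.

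Grp encodes gastrin-releasing peptide, a bombesin-like peptide. It had a processed signal of 117 ± 29.0 on the array labelled Pcgf6_flag, where it was not well above background, 1196 ± 120 in Pcgf6KO and 266 ± 29.5 in wildtype. The scaled level in Pcgf6KO was 2.04 log2 units above wildtype, or 4.11-fold. Against Pcgf6KO the array labelled Pcgf6_flag was at least 11.0-fold lower, and against wildtype at least 2.68-fold lower. Under normexp these log2 differences were -2.58 and -0.89, so that against wildtype Grp no longer passed 2-fold. Within slide 1, where both spots were well above background, Grp was thus higher in Pcgf6KO.

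Tac1 encodes the preprotachykinin from which substance P and neurokinin A are cut. Its processed signal was 146 ± 28.6 on the array labelled Pcgf6_flag, 1951 ± 195 in Pcgf6KO and 497 ± 50.8 in wildtype. All 3 spots were well above background, and the order was Pcgf6KO, wildtype, then the array labelled Pcgf6_flag. Pcgf6KO was higher than wildtype by 1.84 log2 units, with an error of 0.21 from the scanner's estimates. The array labelled Pcgf6_flag differed by -3.84 ± 0.32 from Pcgf6KO, a 14.3-fold lower level, and by -1.999 ± 0.32 from wildtype. Tac1 on that array was thus 3.998-fold below wildtype as well. Under normexp the differences of that array were -2.95 and -1.41.

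Penk encodes proenkephalin, the source of the opioid enkephalins. It gave a processed signal of 3233 ± 324 on the array labelled Pcgf6_flag, 24950 ± 2495 in Pcgf6KO and 6690 ± 669 in wildtype. The order over the arrays was the same as for Tac1. In Pcgf6KO the level was 3.40-fold above wildtype (1.77 ± 0.20 log2 units). On the array labelled Pcgf6_flag it was 8.30-fold below Pcgf6KO and 2.44-fold below wildtype, differences of -3.05 and -1.29.

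Gal encodes the precursor of galanin. Its processed signal was 931 ± 95.8 on the array labelled Pcgf6_flag, 2945 ± 295 in Pcgf6KO and 997 ± 100 in wildtype. Pcgf6KO stood apart, and the other arrays lay close to each other. The Pcgf6KO level was 2.69-fold above wildtype (1.43 ± 0.20 log2 units), and the array labelled Pcgf6_flag was 3.40-fold below Pcgf6KO (-1.77 ± 0.21). The remaining difference between the array labelled Pcgf6_flag and wildtype was -0.34 ± 0.21. Of the 5 genes highest in Pcgf6KO, Gal thus lay nearest to wildtype on the array labelled Pcgf6_flag among those measured on all 3 arrays.

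Npy encodes neuropeptide Y, an abundant peptide of the brain and sympathetic nerves. It had a processed signal of 4571 ± 458 on the array labelled Pcgf6_flag, 2243 ± 225 in Pcgf6KO and 780 ± 78.8 in wildtype. Unlike the 5 genes above, it was not lower on the array labelled Pcgf6_flag than in Pcgf6KO. Pcgf6KO was 2.62-fold above wildtype (1.39 ± 0.21 log2 units), and the array labelled Pcgf6_flag was 4.97-fold above wildtype (2.31 ± 0.21). The step from Pcgf6KO to the array labelled Pcgf6_flag was 0.92 ± 0.20, just under 2-fold, and 1.03 under normexp.

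Cck encodes the precursor of cholecystokinin, a peptide of the gut and the cortex. Its processed signal was 22.6 ± 21.6 on the array labelled Pcgf6_flag, where it was not well above background, 79.7 ± 13.8 in Pcgf6KO and 5391 ± 539 in wildtype. Wildtype alone had a strong signal. The Pcgf6KO level was 74.2-fold below wildtype (-6.21 ± 0.29 log2 units), and the array labelled Pcgf6_flag was at least 61.7-fold below wildtype. Under normexp these differences were -5.15 and -5.22, and without the filter on dim spots that of the array labelled Pcgf6_flag was -8.14. No fold is given between the array labelled Pcgf6_flag and Pcgf6KO, because the Pcgf6KO level lay under the limit of detection of the other array on the scaled axis. The difference between Pcgf6KO and wildtype was seen within slide 1.

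The fibroblast markers moved in the same direction as Cck. Of 17 such markers 16 were measured in each comparison with wildtype. On the array labelled Pcgf6_flag 14 of them were below wildtype by 2-fold or more, in Pcgf6KO 10 were, and 0 were higher by as much in either. Their summed scaled signal, in units of the 75th percentile of each array, was 23.5 on the array labelled Pcgf6_flag, 36.4 in Pcgf6KO and 70.1 in wildtype. Fn1 and Tagln, the brightest markers on both edited arrays, weighed most in the sums of these arrays. They differed from wildtype by -0.09 and -0.18 in Pcgf6KO, and by 0.01 and -0.91 on the array labelled Pcgf6_flag. The sum is therefore no measure of how far the dimmer markers differed. Not well above background were Lum, Postn, Pdgfra, Pdgfrb, Prrx1 and Lox on the array labelled Pcgf6_flag, Lum, Postn and Prrx1 in Pcgf6KO, and Lum in wildtype. The difference of Cck in Pcgf6KO was larger than that of any of the 14 markers measured on both arrays, whose lowest was -4.04 for Lox. Prrx1, with a bound of at least 37.2-fold lower, may reach or pass it. The part of fibroblast RNA in the Cck values was not tested. Beside Nts, Grp, Tac1, Penk and Gal, 7 of 14 measured markers were lower on the array labelled Pcgf6_flag than in Pcgf6KO and 0 higher. In Pcgf6KO against wildtype, where those 5 genes were higher, 0 of 16 markers were. The part of fibroblast RNA in the values of those 5 genes was not tested either.

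Pomc encodes pro-opiomelanocortin, from which ACTH, melanocortins and beta-endorphin are cut. The processed signal was 4691 ± 469 on the array labelled Pcgf6_flag, 5748 ± 575 in Pcgf6KO and 5977 ± 598 in wildtype. It was well above background on every array. The level in Pcgf6KO differed from wildtype by -0.19 ± 0.20 log2 units, within the scanner's own error. On the array labelled Pcgf6_flag it was lower by -0.40 ± 0.20 than in Pcgf6KO and by -0.59 ± 0.20 than in wildtype. Pomc was the only member that stayed within 2-fold in all 3 comparisons.

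**Figure D2:**
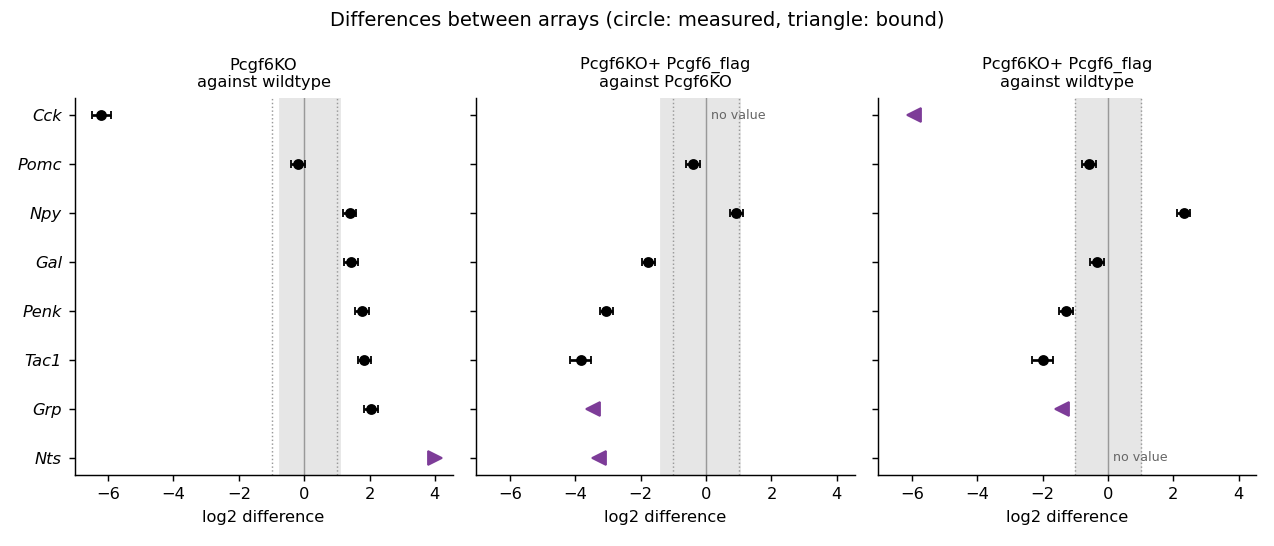
Log2 difference of each neuropeptide precursor gene in the 3 comparisons. Circles are measured differences with the scanner software's error, triangles are bounds where 1 array was not well above background, the grey band spans the 5th to 95th percentile of all genes measured on both arrays, and dotted lines mark 2-fold. In Pcgf6KO against wildtype 6 members lie right of 2-fold and Cck lies far to the left, and against Pcgf6KO 5 members lie left of 2-fold on the array labelled Pcgf6KO+ Pcgf6_flag.

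Counted together, 6 of 8 members were at least 2-fold higher in Pcgf6KO than in wildtype, bounds included, where the share of all 15879 genes was 6.60%. A single member, Cck, was at least 2-fold lower, against 3.56% of all genes, and 10.2% of all genes differed either way. On the array labelled Pcgf6_flag, 5 of 8 members were at least 2-fold lower than in Pcgf6KO and 0 were higher, against 10.0% and 6.18% of 15757 genes, or 16.2% either way. Against wildtype, that array had 4 members lower (Cck, Tac1, Grp and Penk) and 1 higher (Npy) of 7 measured, where all 15587 genes had 6.28% and 5.83%, or 12.1% either way. The medians of the members, with bounds, were 1.60, -3.05 and -1.29 in these 3 comparisons, and those of all genes were -0.02, 0.00 and -0.03. The comparisons share arrays, so they are not independent of each other, and a member that was high in the single Pcgf6KO sample appears in both of the first counts.

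For the 5 members measured on all 3 arrays, the named genes with the nearest pattern were sought among 7843 or fewer genes at or above the median level, as the Euclidean distance between the 3 levels after centring each gene on its mean. Penk was nearest to Anxa3, an annexin gene, with a distance of 0.20 log2 units, Fndc3c1 with 0.44 and Stmn4, a stathmin gene, with 0.61. Tac1 was nearest to Anxa3 with 0.50, Penk itself with 0.61 and Fndc3c1 with 0.71. The opioid and tachykinin precursors thus had Anxa3 and Fndc3c1 in common among their nearest genes. Gal lay close to Dusp14, a phosphatase gene, with 0.04, Vopp1 with 0.07 and Myh8, a myosin heavy chain gene, with 0.15. Npy had no gene as near, with 0.34 for Krtdap, 0.36 for Zcchc10 and 0.40 for Gstm3, a glutathione transferase gene. The flat pattern of Pomc lay close to those of Paxbp1 and Arrb1, both at a distance of 0.02. A likeness over 3 arrays describes these arrays only.

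Other precursor genes were taken from a list of 59, of which 56 were named on the array. In Pcgf6KO against wildtype 6.60% of all genes were at least 2-fold higher and 3.56% lower. Of the 56 precursors 39 were measured on at least 1 array there, and 2 were higher, 4 lower and 33 neither. The lower ones numbered 2 under normexp, and the higher ones 4 in the unscaled value table. The list median was 0.32, against -0.02 for all genes. Those higher were Pyy, for the gut peptide YY, with a difference of 1.55, and Vgf, a granule protein and peptide precursor, with 1.44. Sct (secretin) with 0.95 and Nppb (brain natriuretic peptide) with 0.77 stayed under 2-fold. Lower were the adrenomedullin genes Adm2 with -1.50 and Adm with -1.48, and, as bounds, the tachykinin gene Tac2 by at least 3.72-fold and Nms (neuromedin S) by at least 2.51-fold. Ppy (pancreatic polypeptide) was at least 1.85-fold higher. Tac1 and Tac2, both tachykinin precursors, therefore differed in opposite directions between Pcgf6KO and wildtype.

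Against Pcgf6KO, 6.18% of all genes were at least 2-fold higher on the array labelled Pcgf6_flag and 10.0% lower. Of 37 measured precursor genes 6 were higher and 6 lower, with a median of -0.21 against 0.00 for all genes. Under normexp 2 were higher and 2 lower. Edn2, for endothelin 2, was higher by 1.68, Kiss1 (kisspeptin) by 1.31, Npb (neuropeptide B) by 1.27 and Adm2 by 1.25. Rln1 (relaxin) was lower with -1.17 and Edn1 (endothelin 1) with -1.16. The bounds were at least 3.71-fold lower for Apln (apelin), 2.25-fold for Qrfp and 2.21-fold for Nmu (neuromedin U). Against wildtype, 6 of 35 were higher and 5 lower, where all genes had 5.83% and 6.28%. The median was 0.12 against -0.03, and 3 precursors were lower under normexp or in the unscaled value table. Kiss1 with 2.001, Avp (vasopressin) with 1.65, Edn2 with 1.48, Nppb with 1.37 and Npb with 1.32 were higher, while Gast (gastrin) was lower with -1.26. Qrfp, Apln and Tac2 were lower by at least 3.30-fold, 3.23-fold and 2.07-fold. A second probe of Kiss1 was not well above background on any array, whereas all 3 probes of Npb gave the same direction in both of these comparisons. The other precursors were thus split between the directions.

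**Figure D3:**
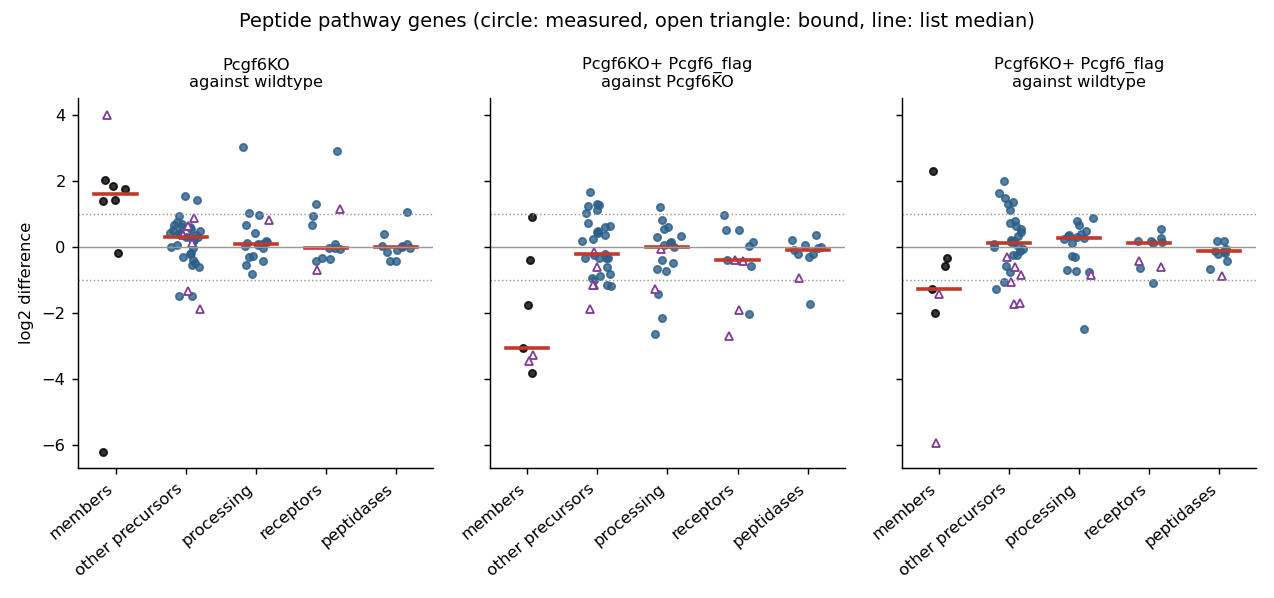
Log2 differences of the 8 members, of other neuropeptide precursor genes and of processing, receptor and peptidase genes in the 3 comparisons. Circles are measured differences, open triangles are bounds, red lines are list medians and dotted lines mark 2-fold. The medians of the 4 lists that are not members lie between -0.40 and 0.32, while those of the members are 1.60, -3.05 and -1.29. The members were chosen with these differences known, so nothing is read from this contrast.

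Precursors need enzymes and granule proteins, and 20 such genes were listed. In Pcgf6KO against wildtype 6.60% of all genes were at least 2-fold higher and 3.56% lower. Of the 19 listed genes measured there, 2 were higher and 0 lower, with a median of 0.08. The higher genes were Pcsk1, which encodes the proprotein convertase PC1/3 of regulated secretory granules, and Cpd, a carboxypeptidase gene, with 1.04. Pcsk1 had processed signals of 239 on the array labelled Pcgf6_flag, 994 in Pcgf6KO and 111 in wildtype. Its level was thus highest in Pcgf6KO, by 3.03 over wildtype, and it was lower by -2.16 on the array labelled Pcgf6_flag. Like Gal, Penk, Tac1, Grp and Nts, it was at least 2-fold higher in Pcgf6KO than on both other arrays. Pcsk2, the partner convertase PC2, differed by only 0.19 in Pcgf6KO on its brightest probe, and its second probe was well above background in Pcgf6KO alone.

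Cpe, which encodes the carboxypeptidase that trims convertase products, was low on the array labelled Pcgf6_flag alone. It had processed signals of 2231 on the array labelled Pcgf6_flag, 13025 in Pcgf6KO and 10653 in wildtype. Pcgf6KO and wildtype were within 0.16 log2 units, and the array labelled Pcgf6_flag was lower by -2.65 and -2.49. All 3 of its probes showed this, with differences from Pcgf6KO of -2.65 to -3.01. Fibroblast markers were lower in the same comparison, as given beside Cck, and their part in the Cpe values was not tested. Against Pcgf6KO 4 of 19 listed genes were lower on the array labelled Pcgf6_flag and 1 higher, against 10.0% and 6.18% of all genes. Besides Cpe and Pcsk1 the lower ones were Scg3, for the granule protein secretogranin III, with -1.43, and Pcsk5, by at least 2.41-fold. The higher one was Chga, for chromogranin A, with 1.21. Against wildtype only Cpe passed 2-fold, of 18 measured, where 6.28% of all genes were lower and 5.83% higher.

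**Figure D4:**
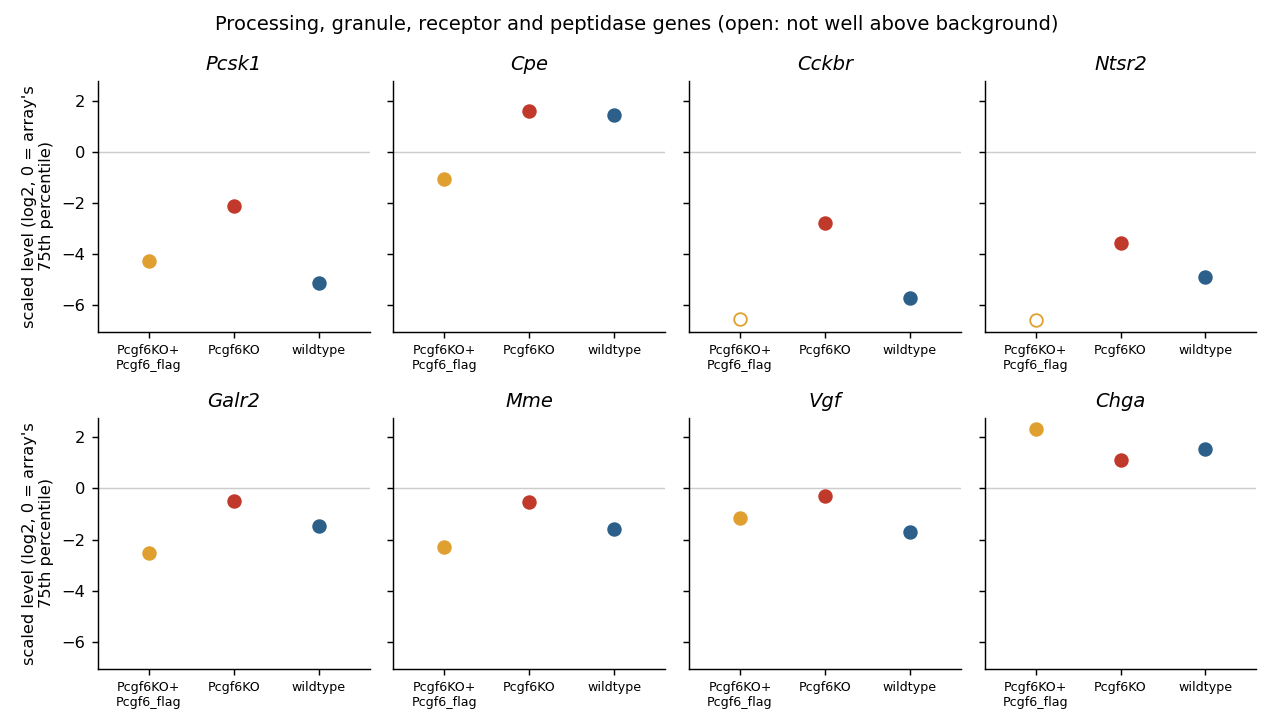
Scaled level (log2, 0 at the 75th percentile of the array) of 8 processing, granule, receptor and peptidase genes on the array labelled Pcgf6KO+ Pcgf6_flag, in Pcgf6KO and in wildtype. Points are single arrays and open points are not well above background. Pcsk1, Cckbr, Ntsr2, Galr2, Mme and Vgf are highest in Pcgf6KO, Cpe is low on the array labelled Pcgf6KO+ Pcgf6_flag alone, and Chga is highest there. The 8 genes were picked by name and do not stand for their lists. In Pcgf6KO against wildtype 2 of 19 processing, 3 of 13 receptor and 1 of 11 peptidase genes were at least 2-fold higher. Among all genes the share was 6.60%.

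Receptors of the 8 peptides were mostly near the limit of detection. Of 28 receptor genes 15 were not well above background in Pcgf6KO or in wildtype. Among the 13 others 3 were at least 2-fold higher in Pcgf6KO and 0 lower, against 6.60% and 3.56% of all genes. The list median was -0.02. Cckbr, the cholecystokinin B receptor, was higher by 2.91, with processed signals of 50.1 on the array labelled Pcgf6_flag, where it was not well above background, 620 in Pcgf6KO and 75.4 in wildtype. It therefore ran opposite to Cck, the gene of its ligand, between Pcgf6KO and wildtype. A second probe of Cckbr differed by only 0.69 in that comparison. Ntsr2, the neurotensin receptor 2, was higher by 1.31, in the direction of its ligand gene Nts, and its second probe was well above background in Pcgf6KO alone. Oprk1, the kappa opioid receptor, was at least 2.24-fold higher.

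Further receptors differed less between Pcgf6KO and wildtype. The differences were 0.95 for Galr2 and 0.66 for Npy1r, receptors of galanin and neuropeptide Y, and -0.43 for Galr3. Sort1, the sorting receptor sortilin that binds neurotensin, differed by -0.06, Ogfr, the opioid growth factor receptor, by 0.08, and Mc5r and Oprd1 by -0.02 each. Brs3 was at least 1.63-fold lower. The differences of Oprm1 and Tacr2, -0.35 and -0.32, were read from very bright probes, while the second probe of Oprm1 was not well above background on any array and that of Tacr2 was far dimmer, so their levels are uncertain. On the array labelled Pcgf6_flag 10.0% of all genes were at least 2-fold lower than in Pcgf6KO and 6.18% higher. Of 12 receptors, 3 were lower and 0 higher. These were Galr2 with -2.03, Cckbr by at least 6.47-fold and Ntsr2 by at least 3.77-fold, all genes with a higher level in Pcgf6KO. Against wildtype 1 of 12 receptors, Galr2 with -1.08, was lower, against 6.28% of all genes.

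Peptide-degrading enzymes were listed with 11 genes, all of them measured. Mme, which encodes neprilysin, an enzyme that degrades enkephalins and substance P, was the only one past 2-fold. It was higher by 1.07 in Pcgf6KO than in wildtype and lower by -1.74 on the array labelled Pcgf6_flag than in Pcgf6KO, and its second probe gave 1.37 and -1.81. Its order over the arrays was that of Penk and Tac1, with a difference of -0.67 between the array labelled Pcgf6_flag and wildtype. The list median was 0.00 in Pcgf6KO against wildtype, and 6.60% of all genes were at least 2-fold higher there. Npepps, Prep, Tpp2, Thop1, Nln, Dpp4, Ace, Anpep, Ece1 and Ece2 differed by -0.43 to 0.38 there.

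Marker lists were read on the same arrays. The 13 stem cell markers were well above background on all 3 arrays and 0 passed 2-fold in any comparison, with summed scaled signals of 168 on the array labelled Pcgf6_flag, 145 in Pcgf6KO and 163 in wildtype. Of 18 neuron markers 17 were measured in Pcgf6KO or wildtype, and 2 were at least 2-fold higher in Pcgf6KO and 0 lower. These were Nefm, a neurofilament gene, with 2.36 and Syt1, a synaptic vesicle gene, with 1.31. Both were lower on the array labelled Pcgf6_flag than in Pcgf6KO, with -2.15 and -2.29, while Elavl3 with 1.39 was higher there. In Pcgf6KO against wildtype Rbfox3 differed by 0.98, just under 2-fold, on its brightest probe, and by 1.32 and 1.06 on its other probes. Members of the list went both ways, with 9 higher and 8 lower by any amount in the first comparison. The list median was 0.09 there and 0.01 in the second comparison. The summed scaled signal was 46.3 on the array labelled Pcgf6_flag, 41.1 in Pcgf6KO and 48.4 in wildtype, with Snap25, a synaptic gene, the brightest marker on each array. Neurog2 was not well above background on any array. Whether neuron-like cells contribute to the peptide genes was not tested. One label field gives muscle as the source. Of 7 muscle markers Myod1, Acta1, Myh3, Des and Tnnt3 were well above background on all 3 arrays, and Myog and Ckm on none. Tnnt3, a troponin gene, differed by 1.19 in Pcgf6KO against wildtype and by -2.13 on the array labelled Pcgf6_flag against Pcgf6KO, and Myh3, a myosin heavy chain gene, by 0.99 and -0.99. Both were thus highest in Pcgf6KO, though Myh3 stayed just under 2-fold. Myod1 with -0.004 and 0.18 and Des with 0.11 and 0.57 were highest on the array labelled Pcgf6_flag instead. Acta1, an actin gene, differed by -0.08 and -1.54. The summed scaled signal of the list was 4.96 on the array labelled Pcgf6_flag, 6.69 in Pcgf6KO and 5.26 in wildtype, and the part of muscle-like RNA in the peptide gene values was not tested.

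**Figure D5:**
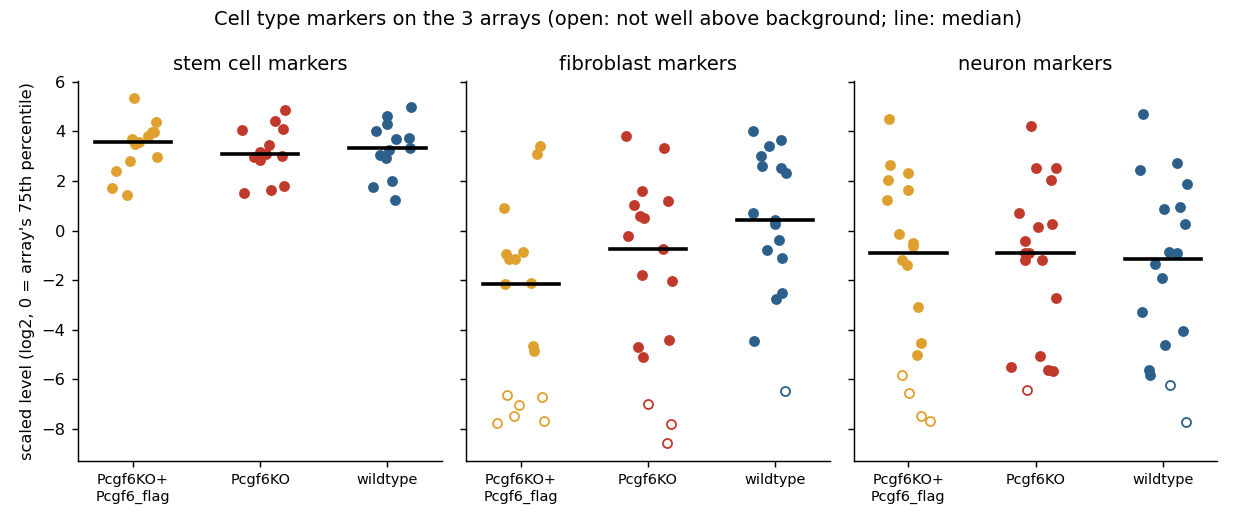
Scaled level (log2, 0 at the 75th percentile of the array) of stem cell, fibroblast and neuron markers on the array labelled Pcgf6KO+ Pcgf6_flag, in Pcgf6KO and in wildtype. Points are genes, open where not well above background, and lines are medians. Every stem cell marker differs by less than 2-fold between arrays. The median of the fibroblast markers is -2.14 on the array labelled Pcgf6KO+ Pcgf6_flag, -0.75 in Pcgf6KO and 0.43 in wildtype, and that of the neuron markers is -0.89, -0.92 and -1.13 on the same arrays.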

How the data were processed

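Per the labels, total RNA labelled with Cy3 was put on 1-colour arrays. Per the file headers, the deposited processed signal is an intensity on a linear scale, background-subtracted and not scaled between arrays, extracted with Agilent Feature Extraction 11.5.1.1 for a design annotated on mm9. The submitters' processing notes name version 10.7. The deposited value table equals the processed intensity for 55249 of 55249 single-spot probes per array (relative tolerance 1e-06), so it is linear and unscaled, with column medians of 313 (array labelled Pcgf6KO+ Pcgf6_flag), 273 (Pcgf6KO) and 243 (wildtype).

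Control spots and 192, 158 and 141 outlier spots (same order) were left out, and 0 were saturated. The level is log2 signal minus the array's 75th percentile. RefSeq accessions (GRCm38.p6 table) named 26762 of 55681 probes. Each gene's value is that of its brightest probe among those well above background on at least 1 array. With 1 array per group no test was run, and calls use a fixed 2-fold rule. The members, lists and motifs were chosen with earlier results of these data known. Other genes were named by rule: the 6 largest differences and 3 largest bounds per list and comparison, measured receptors, and the 3 nearest patterns, of which 1 is not reported here. Alternatives are given in the closing section. Motif letters were counted in RefSeq promoter windows. Tools were Python 3.11.15, numpy 2.4.6, pandas 2.3.3, matplotlib 3.10.9, R 4.3.3 and limma 3.58.1.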

Additional observations from a re-analysis of the deposited data

How the results depend on the processing

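The 22 member differences kept their sign in all 176 values from 8 alternatives, and 173 kept their side of 2-fold. Part of this was fixed in advance. Averaging over probes cannot change a member read by 1 probe, and keeping outlier spots only shifted the scaling, as no member spot was an outlier. The exceptions were Npy on the array labelled Pcgf6KO+ Pcgf6_flag against Pcgf6KO, past 2-fold in the unscaled value table and with 1.03 under normexp background correction, and Grp on that array against wildtype, -0.89 under normexp. Of 60 member counts 56 stayed within 1.5 times. Against Pcgf6KO the count of higher members was 1, Npy, in place of 0 under normexp, in the unscaled value table and with a 1.5-fold threshold, and against wildtype the count of lower members was 2 in place of 4 with a 3-fold threshold, which follows from the thresholds. In the unscaled value table all measured member differences of a comparison shift by the same constant, which took Npy past 2-fold. The cause of the change under normexp was not tested. Under normexp the differences of Cck, Nts, Tac1 and Grp were smaller in every comparison that gave a value, with 1.54 for Tac1 and 1.69 for Grp in Pcgf6KO against wildtype. Without scaling, the median of all genes moved to 0.11 in Pcgf6KO against wildtype, 0.13 on the array labelled Pcgf6KO+ Pcgf6_flag against Pcgf6KO and 0.22 on it against wildtype, where 66.0% of called genes were higher in place of 48.1%. Scaling to the median moved the last of these medians to -0.14. Genes called higher and lower in Pcgf6KO against wildtype numbered 1048 and 565, against 659 and 408 with normexp, 1590 and 879 with no filter on dim probes, 2056 and 1352 at 1.5-fold and 405 and 230 at 3-fold. On the array labelled Pcgf6KO+ Pcgf6_flag against Pcgf6KO they were 973 and 1579, against 1967 and 2201 with no filter, 2022 and 2678 at 1.5-fold and 313 and 779 at 3-fold. On it against wildtype they were 909 and 979, against 552 and 728 with normexp, 1764 and 1508 with no filter, 1809 and 1977 at 1.5-fold and 307 and 424 at 3-fold. Counts of other precursor genes that moved by over 1.5 times are given beside them above. They moved under normexp in all 3 comparisons, and in the unscaled value table in both comparisons with wildtype. Signals not well above background are limits only. These include all signals under 103 on the array labelled Pcgf6KO+ Pcgf6_flag, 53.4 in Pcgf6KO and 52.7 in wildtype. Some higher signals are limits as well, such as Grp with 117 on the array labelled Pcgf6KO+ Pcgf6_flag. Slide could not be used as a block, because slide 2 holds 1 array. No paired analysis was possible because each group has 1 array.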
